A study of Rattus norvegicus with 90 samples.

Results

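Renal proximal tubular epithelial cells of the Sprague-Dawley rat were compared after 24 h with 0.125 mM thioacetamide-S-oxide, the low dose, and after 24 h in vehicle. The 10 libraries were taken by their labels for cell type, dose and duration, 5 at the low dose and 5 in vehicle, of 90 libraries in the series. The cells were bought cryopreserved, plated on poly-L-lysine, and given compound or vehicle, which was the epithelial culture medium itself, after an overnight culture. The number of rats or lots behind the cells was not given in the sources used here, so the p-values below measure the spread between cultures that may share a donor. The same cells at 9 h (5 low-dose and 5 vehicle libraries, other cultures) and at 0.5 mM for 24 h (5 libraries, the high dose) are used below only to set values beside those of the low dose at 24 h.

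Thioacetamide-S-oxide is the first oxidation product of thioacetamide, a compound used to injure the liver of rodents. It is oxidised further to a reactive species that binds to proteins and lipids, and most of this takes place in cells rich in drug-oxidising enzymes. The proximal tubule takes back most of the filtered water, salts, sugars and amino acids of the kidney, carries many transporters for foreign compounds, and has drug-oxidising enzymes of its own, which is why it is often used to look for injury by chemicals. The comparison asks which transcripts are higher or lower in these cells after a day with a dose that was chosen to leave most of them viable.

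Poly-A-enriched RNA was sequenced, and levels were deposited per Ensembl transcript as estimated counts, in which a read that fits several transcripts is divided among them. The identifiers could not be joined to gene names with the tables used here, so the defining markers of the proximal tubule, of other nephron segments and of other cell types could not be looked up, and the labelled cell type was not checked. For the same reason at most 2 transcripts that rose and 2 that fell are identified below, and no sequence is shown. A level is given in CPM, a transcript's count relative to the library total, scaled by the TMM factors of edgeR, and a change as a log2 fold change of low dose against vehicle. A differentially expressed transcript (DEG) passed 2 thresholds, an adjusted p of at most 0.05 (edgeR's quasi-likelihood test, Benjamini-Hochberg over all transcripts tested) and a change of at least 0.41 on the natural-log scale, which is 1.51-fold.

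The libraries were not alike. The vehicle libraries held 11415878 to 30103887 estimated counts each and the low-dose libraries 15078809 to 32441592. Vehicle library MS-137 and low-dose library MS-145 were the shallow ones. Library MS-145 also differed in what it held: its 50 most abundant transcripts took 41.6% of its transcript counts, against 18.5% to 22.4% in the other 4 low-dose libraries and 18.8% to 21.5% in vehicle. In it, 10 transcripts held over 1% of the counts each and 30.7% together, against 2 to 4 such transcripts in the other 9 libraries. Which genes these are is not known here. Its fragment length, as the deposited effective lengths imply it, was 142.8 bases, where the other 9 had 157.8 to 171.7, and the part of RNA quality in its values was not tested. It had 19227 transcripts with at least 1 count, where the other 9 had 20458 to 22816. Its median difference from the vehicle mean, taken in size, was 0.63 on the log2 CPM scale, and 29.7% of the tested transcripts differed by over 2-fold. In the other 4 low-dose libraries these values were at most 0.22 and 4.64%. Library MS-144 was the next in this order, and the counts for the low dose at 24 h are therefore also given without library MS-145. Elsewhere in the series, cardiomyocyte libraries MS-158 and MS-172 had 41.2% and 46.6% of transcript counts on their 50 most abundant transcripts. Their fragment lengths were 139.2 and 131.6 bases.

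**Figure D1:**
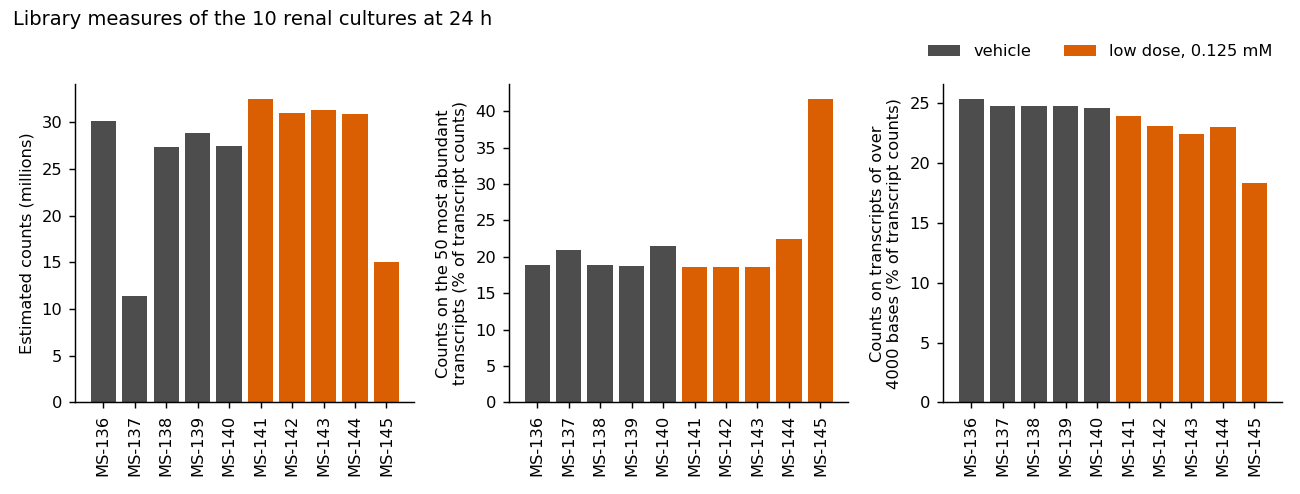
Bars show, for each of the 10 libraries at 24 h, the estimated counts (left), the share of transcript counts on the 50 most abundant transcripts (middle, %) and the share on transcripts of over 4000 bases (right, %), with vehicle in grey and the low dose in orange. Library MS-145 reaches 41.6% in the middle panel and 18.4% in the right panel, while the shallow vehicle library MS-137 lies with the other vehicle libraries in the right panel.

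None of 4 library measures passed a test between the groups, 5 libraries against 5. The share of counts on transcripts was 94.5% ± 0.710 (SD, n = 5) at the low dose and 93.4% ± 0.828 (SD, n = 5) in vehicle, a difference of 1.14 percentage points (exact permutation test, two-sided, over all splits of 5 against 5, p = 0.0556, adjusted p = 0.222 over 4 measures). The exact p was 0.452 for the total of estimated counts, 0.881 for the number of transcripts detected and 0.563 for the share on the 50 most abundant transcripts. The smallest p that this test can give is 0.00794. The share of transcript counts on transcripts of over 4000 bases was not among the 4 measures and was not tested. It ran from 24.6% to 25.3% in vehicle and from 18.4% to 23.9% at the low dose, without overlap.

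The low dose left few transcripts past the thresholds at 24 h. Of 17684 transcripts tested, 11 were DEGs (0.0622% of those tested), 8 higher (0.0452%) and 3 lower (0.017%) than in vehicle. The increases ranged from 0.66 to 2.03 on the log2 scale and the decreases from -0.91 to -0.76. An unadjusted p under 0.05 was found for 1120 transcripts, or 6.33% of those tested. All 11 DEGs had the 5 low-dose libraries on one side of the 5 vehicle libraries, as had 763 of all tested transcripts (4.31%). In bulk RNA, fewer cells of a kind and less RNA per cell cannot be told apart, and this holds for each change below.

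ENSRNOT00000017174, a transcript of 1579 bases, rose the most among the DEGs. It stood at 21.0, 18.7, 19.6, 19.9 and 16.6 CPM in vehicle libraries MS-136 to MS-140 and at 84.4, 88.6, 95.5, 71.5 and 51.7 CPM in low-dose libraries MS-141 to MS-145. The lowest low-dose value, that of library MS-145, was above every vehicle value, and the low-dose libraries were spread more widely than the vehicle libraries. The means were 78.4 ± 17.3 CPM at the low dose and 19.2 ± 1.64 CPM in vehicle (SD, n = 5 each). The log2 fold change was 2.03 (SE 0.16, 95% interval 1.68 to 2.39, adjusted p = 8.57e-04 in edgeR's quasi-likelihood test), and 2.15 (SE 0.09) without library MS-145.

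The second, ENSRNOT00000013073, is a transcript of 993 bases and had the smallest p-value of all tested transcripts. Its vehicle libraries held 17.3, 18.4, 18.1, 18.7 and 19.5 CPM and its low-dose libraries 58.7, 60.8, 63.3, 68.6 and 63.97 CPM. Here library MS-145 lay among the other low-dose libraries, and both groups were tight. The log2 fold change was 1.78 (SE 0.07, 95% interval 1.63 to 1.93, adjusted p = 2.22e-06, edgeR), and 1.77 without library MS-145.

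Among the DEGs, the largest decrease was that of ENSRNOT00000024564, a long transcript of 10339 bases. It held 26.2, 28.6, 29.6, 29.7 and 30.1 CPM in the vehicle libraries and 16.1, 15.9, 14.9, 14.5 and 15.3 CPM in the low-dose libraries. All low-dose values lay close together and well under the lowest vehicle value, library MS-145 included. The log2 fold change was -0.91 (SE 0.07, 95% interval -1.07 to -0.75, adjusted p = 8.57e-04, edgeR), with and without library MS-145.

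ENSRNOT00000002187, of 4400 bases, had 76.4, 64.7, 75.05, 73.4 and 69.9 CPM in vehicle and 46.2, 42.8, 40.0, 41.1 and 29.8 CPM at the low dose. The groups did not overlap, and the lowest value was that of library MS-145. The log2 fold change was -0.85 (SE 0.11, 95% interval -1.10 to -0.60, adjusted p = 0.0282, edgeR). It was -0.76 (SE 0.07, adjusted p = 0.00102) without library MS-145, whereas leaving out any library other than MS-141 or MS-145 took its adjusted p over 0.05, to between 0.0847 and 0.141.

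**Figure D2:**
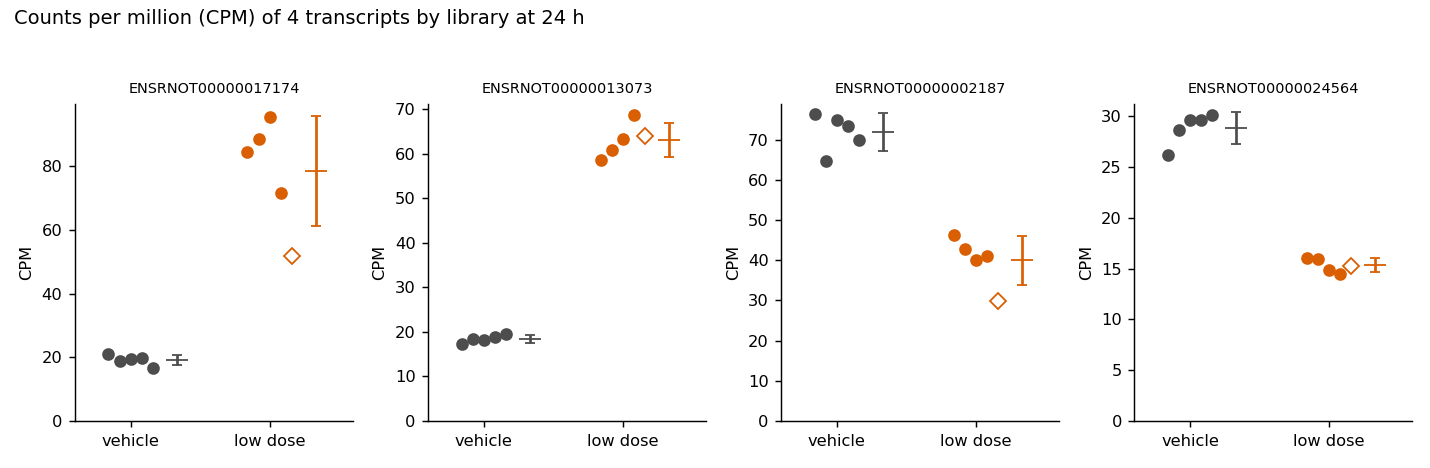
Each panel plots the CPM of 1 transcript in the 5 vehicle (grey) and 5 low-dose (orange) libraries at 24 h, with library MS-145 as an open diamond and the mean ± SD (n = 5) at the right of each group. In all 4 panels the groups do not overlap, and the open diamond is the lowest low-dose value for ENSRNOT00000017174, at 51.7 CPM, and for ENSRNOT00000002187, at 29.8 CPM.

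The other 6 DEGs that rose had log2 fold changes from 0.66 to 1.39 and mean vehicle levels from 5.15 to 67.6 CPM. The remaining decrease was from 40.8 ± 3.92 to 24.0 ± 2.997 CPM (SD, n = 5 each), a log2 fold change of -0.76. A further 3 transcripts that were higher and 1 that was lower had an adjusted p of at most 0.05 with a change under the fold threshold, and in all of these too the groups did not overlap. Among the transcripts past the fold threshold, of which there were 1542, the next by p-value had an adjusted p of 0.0555 and a log2 fold change of -0.85.

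The DEGs that rose were mostly short and those that fell were long. Of the 8 that rose, 7 had lengths from 993 to 1579 bases and 1 had 8894 bases. The 3 that fell had 3529, 4400 and 10339 bases. The tested transcripts had a median of 2179 bases, with a middle range from the lower to the upper quartile of 1397 to 3395 bases. The low-dose libraries as a whole held fewer counts on long transcripts: transcripts of over 4000 bases took 24.6% to 25.3% of the transcript counts in vehicle and 22.4% to 23.9% in low-dose libraries MS-141 to MS-144, with 18.4% in library MS-145. The median log2 fold change was 0.01 over the 5453 tested transcripts of 1000 to under 2000 bases and -0.02 over the 3133 of at least 4000 bases, and without library MS-145 it was 0.04 and -0.06. In library MS-145 alone the order was the opposite, with medians of -0.18 and 0.10 from the vehicle mean, although its share of counts on long transcripts was the lowest. These shifts are medians over length classes and do not bound the shift of a single transcript. Their part in the calls was not tested.

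The same comparison without library MS-145, 4 libraries against 5, gave more DEGs. There were 53 (0.295% of 17946 tested), 37 higher (0.206%) and 16 lower (0.0892%), and all 11 DEGs of the 10 libraries were among them. For the 29 increases added, library MS-145 itself lay above all vehicle libraries in 13, among them in 8 and under them in 8, with a median of 0.13 from the vehicle mean on the log2 scale where the other 4 low-dose libraries had 0.77. For the 13 decreases added it lay under all vehicle libraries in 11, among them in 1 and above them in 1, with medians of -0.66 and -0.65. The added DEGs were called without that library, so these values are a description only. Over all 37 increases the median log2 fold change was 0.86, and over all 16 decreases it was -0.74. The number of transcripts with an adjusted p of at most 0.05, whatever their fold change, went from 15 to 207. The variation between libraries fell, as edgeR's biological coefficient of variation was 0.345 over all 10 libraries and 0.233 without library MS-145. No other single library raised the count when left out. Leaving out vehicle library MS-136, MS-137, MS-138, MS-139 or MS-140 gave 6, 6, 6, 4 and 7 DEGs, and leaving out low-dose library MS-141, MS-142, MS-143 or MS-144 gave 10, 6, 6 and 7.

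Libraries MS-137, MS-140 and MS-144 also had larger shares on their most abundant transcripts than the rest of their groups, and 2 fits were made on this ground after the data were seen. With 3 libraries against 3, leaving out MS-137, MS-140, MS-144 and MS-145, there were 85 DEGs (0.475% of 17913), 51 higher (0.285%) and 34 lower (0.19%), and the coefficient of variation was 0.108. With all 10 libraries and 1 surrogate variable, a covariate estimated from the counts by sva, there were 92 (0.52%), 40 higher (0.226%) and 52 lower (0.294%). On that variable library MS-145 had a value of 0.88, library MS-144 0.14 and the other 8 libraries -0.19 to 0.04. All 11 DEGs were among the DEGs of both fits. The split between higher and lower thus depended on how the libraries were treated, from 8 and 3 with all 10 libraries to 52 and 98 with the surrogate variable and without library MS-145. The tools also differed. On the 10 libraries DESeq2 called 35 higher and 28 lower (0.356% of those tested), limma-voom with a weight for each library 60 and 72 (0.746%), limma on log2(CPM + 0.5) 8 and 3, and limma on log2(TPM + 1) 0, while edgeR with all 6 renal groups in one fit called 88 and 55 (0.748%).

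**Figure D3:**
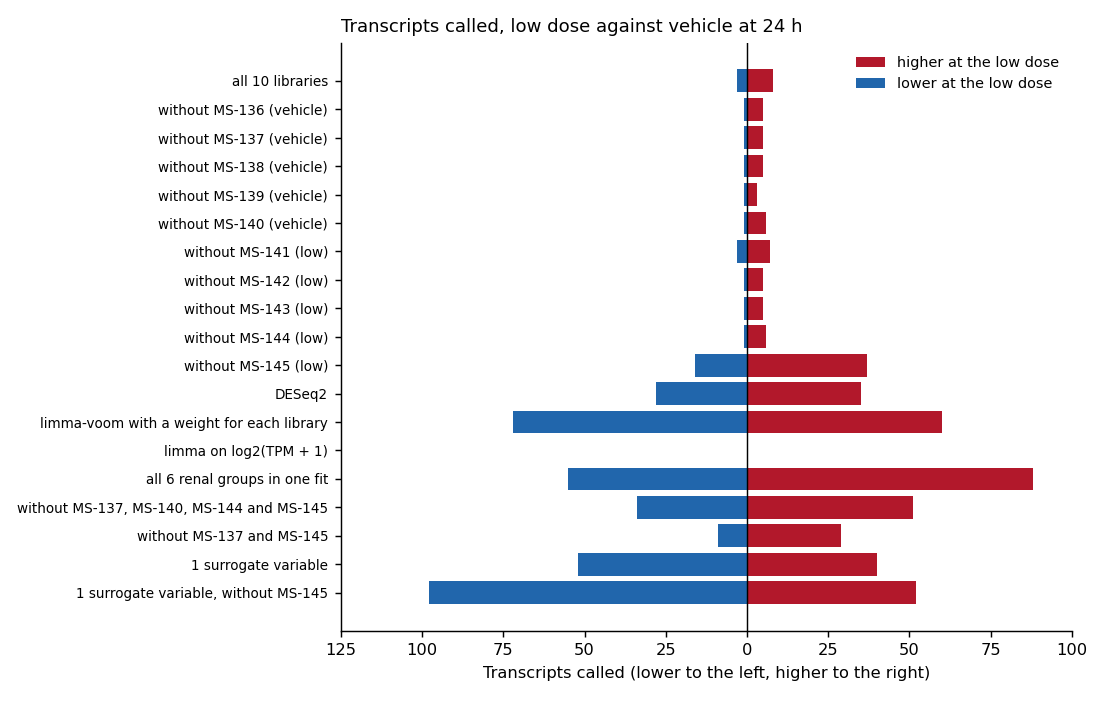
Bars give the number of DEGs at the low dose at 24 h, lower than vehicle to the left (blue) and higher to the right (red), for the fit of all 10 libraries, for each library left out, for other tools, for all 6 renal groups in one fit and for 4 fits chosen after the data were seen. The count is 11 with all 10 libraries, 4 to 10 with any library but MS-145 left out, 53 without library MS-145 and 0 from limma on log2(TPM + 1), and with DESeq2, with limma-voom and with all 6 renal groups in one fit 35, 60 and 88 were higher and 28, 72 and 55 lower.

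The comparison left room for changes that were not called. For 8181 transcripts (46.3% of those tested) the whole 95% interval of the fold change lay within 1.5-fold of no change in either direction. Without library MS-145 these were 11915 (66.4%), and in the comparison of the low dose at 9 h they were 11773 (67.1%). The SE of the log2 fold change had a median of 0.20 with all 10 libraries, 0.13 without library MS-145 and 0.08 at 9 h. For the remaining transcripts a change of 1.5-fold or more was not excluded by its interval.

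At 9 h, in other cultures, the same dose gave 1173 DEGs of 17535 tested (6.69%), 399 higher (2.28%) and 774 lower (4.41%). Their levels in the 24 h cultures are a measurement in libraries that played no part in choosing them. Of the 399, with a median log2 fold change of 0.89 at 9 h, 394 were tested at 24 h. Their median at 24 h was -0.01, 49.0% of them were above 0, and 4 were DEGs at 24 h, all higher. Of the 774, with a median of -0.93 at 9 h, 728 were tested at 24 h, where their median was -0.10, 36.8% were above 0 and 2 were DEGs, both lower. Over all transcripts tested at 24 h, the median was 0.00, 49.8% were above 0 and 0.0622% were DEGs. Values at 9 h are large by choice here, since these transcripts were taken for their change at that time.

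Library MS-145 stood apart in the 9 h decreases. Taken one library at a time, the median difference of the 9 h decreases from the vehicle mean at 24 h was -0.32 in library MS-145 and between -0.08 and -0.02 in the other 4 low-dose libraries, where the vehicle libraries ranged from -0.03 to 0.03. The median over all tested transcripts was -0.09 in library MS-145. Without it, the median at 24 h was -0.03 for the 9 h increases and -0.06 for the 9 h decreases, and 13 and 6 of them were DEGs, where 0.295% of all tested transcripts were. Not all of these had kept their direction: of the 13, 10 were higher at 24 h and 3 lower, and of the 6, 4 were lower and 2 higher. Above 0 were then 45.6% of the 9 h increases and 39.8% of the 9 h decreases, and 51.9% of all tested transcripts. The interval of the change at 24 h then lay within 1.5-fold for 44.3% of the former and 50.7% of the latter, and for 66.4% of all tested transcripts.

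**Figure D4:**
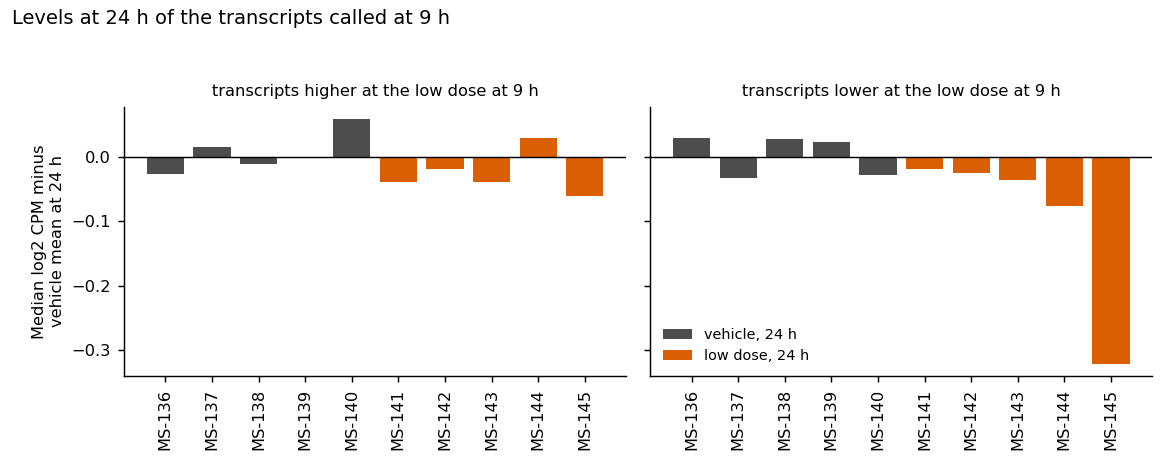
Each bar is the median, over transcripts called at the low dose at 9 h, of the log2 CPM in 1 library at 24 h minus the vehicle mean at 24 h, for transcripts higher (left) and lower (right) at 9 h. Vehicle libraries are grey and low-dose libraries orange; the medians stay between -0.08 and 0.06 except in library MS-145 on the right, at -0.32.

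The difference between the 2 times was tested directly, as the low-dose response at 24 h minus that at 9 h over 20 libraries. It passed the thresholds for 645 of 18454 transcripts (3.5%), and for 884 without library MS-145. For 385 (2.09%) the difference was positive: the median log2 fold change of the 367 that were tested at both times was -0.94 at 9 h and 0.12 at 24 h. For 260 (1.41%) it was negative, with medians of 0.79 and -0.21 over the 254 tested at both times. Of the transcripts so called, 3 of the positive and 1 of the negative were DEGs at 24 h, where 0.0622% of all tested transcripts were. In both sets the median was thus farther from 0 at 9 h than at 24 h. The transcripts were chosen by this difference in the same libraries, so the medians are a description only. The libraries of the 2 times came from different cultures, and the sources used here do not say whether these were exposed in the same run.

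The 11 DEGs of 24 h were also followed back to the 9 h cultures, where 4 of the 8 increases were DEGs in the same direction (2.28% of all tested transcripts were higher) and 2 of the 3 decreases (4.41% were lower), none in the opposite direction. Over the increases the log2 fold changes at 9 h ran from 0.11 to 1.47, and over the decreases from -1.15 to -0.07. The difference between the times passed both thresholds for 4 of the 11, where 3.5% of all tested transcripts did, although these transcripts were chosen for their change at 24 h.

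ENSRNOT00000017174 had 18.3 ± 1.22 CPM in vehicle and 40.8 ± 2.22 CPM at the low dose at 9 h (SD, n = 5 each, on a scale common to the 30 renal libraries). Its log2 fold change was 1.15 (SE 0.06) at 9 h and was larger at 24 h by 0.87 (SE 0.17, adjusted p = 0.00298 in edgeR's test of the difference). ENSRNOT00000013073 had 33.9 ± 2.38 CPM in vehicle and 44.1 ± 2.13 CPM at the low dose at 9 h, a log2 fold change of 0.37 (SE 0.05), which was larger at 24 h by 1.38 (SE 0.08, adjusted p = 4.01e-09). Its vehicle level itself was lower at 24 h, at 19.5 ± 0.958 CPM on the same scale.

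For the 2 named decreases the difference between the times was not past the threshold. The log2 fold change of ENSRNOT00000024564 was -1.15 (SE 0.06) at 9 h, from 30.6 ± 1.61 to 13.8 ± 1.02 CPM, and the value at 24 h minus that at 9 h had a 95% interval of 0.05 to 0.40 (adjusted p = 0.153, edgeR). ENSRNOT00000002187 had -0.71 (SE 0.03) at 9 h, from 96.6 ± 1.32 to 59.6 ± 2.996 CPM, and the interval of the difference was -0.40 to 0.09 (adjusted p = 0.582). Both were thus already lower at 9 h. For the former the interval lies above 0, towards a smaller decrease at 24 h, and the difference did not pass the adjustment over all transcripts tested.

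The high dose of 0.5 mM for 24 h was compared with the same 5 vehicle libraries, so its values are only set beside those of the low dose. It had 4793 DEGs (26.9% of 17798 tested). The log2 fold changes of the 8 transcripts that rose at the low dose ran from 1.06 to 5.05 at the high dose, and those of the 3 that fell from -2.35 to -1.17. ENSRNOT00000017174 reached 325 ± 30.6 CPM and ENSRNOT00000013073 649 ± 55.9 CPM at the high dose, while ENSRNOT00000024564 was at 6.003 ± 0.446 and ENSRNOT00000002187 at 15.3 ± 1.54 CPM (SD, n = 5 each, on the scale of the 30 libraries).

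Compared directly, high against low dose, all 11 had an adjusted p of at most 0.05 and 9 also passed the fold threshold, where 19.7% of all tested transcripts were DEGs, 3532 in number and 4234 without library MS-145. The differences at 24 h were 1.96 (SE 0.16) for ENSRNOT00000017174, 3.27 (SE 0.08) for ENSRNOT00000013073, -1.44 (SE 0.09) for ENSRNOT00000024564 and -1.48 (SE 0.13) for ENSRNOT00000002187 on the log2 scale, with adjusted p-values of 1.45e-05, 2.08e-08, 2.11e-06 and 1.87e-05 (edgeR). The low-dose level of each thus lay between vehicle and high dose.

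**Figure D5:**
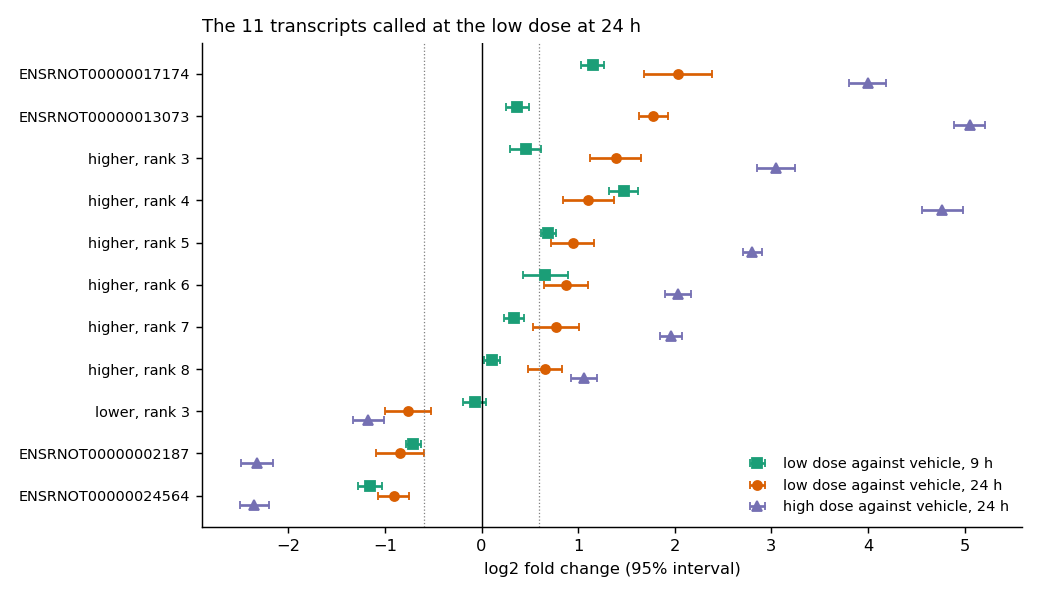
Points give the log2 fold change against vehicle, with its 95% interval, of the 11 transcripts called at the low dose at 24 h, at the low dose at 9 h (green squares), the low dose at 24 h (orange circles) and the high dose at 24 h (purple triangles). Dotted lines mark the fold threshold. The high-dose value is farther from 0 than the low-dose value at 24 h for each of the 11, with both drawn against the same vehicle libraries.

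Per length, in TPM as deposited, a unit scaled for transcript length and library depth, the 4 named transcripts differed in abundance in renal vehicle cells. At 24 h their levels were 30.7 ± 1.04 TPM for ENSRNOT00000013073, 23.6 ± 2.32 for ENSRNOT00000002187, 18.8 ± 2.28 for ENSRNOT00000017174 and 3.93 ± 0.192 for ENSRNOT00000024564 (SD, n = 5 each). In vehicle cultures of the other cell types at 24 h, ENSRNOT00000013073 stood at 551.4 ± 275.6 TPM in hepatocytes and 36.6 ± 0.857 TPM in cardiomyocytes, and ENSRNOT00000017174 at 398.9 ± 211.6 and 76.1 ± 7.17 TPM. The wide spread in hepatocytes came from 1 library, which had 68.0 TPM of ENSRNOT00000013073 and 26.5 TPM of ENSRNOT00000017174, where the other 4 had 581.5 to 724.3 and 444.6 to 544.7 TPM. This group holds library MS-183, which had 2993135 estimated counts, with 8.33% of them on transcripts. In the other 4 that share was 84.1% to 93.5%. The hepatocyte means at 24 h include library MS-183, and the part of library quality in the spread was not tested. ENSRNOT00000024564 had 33.5 ± 17.5 TPM in hepatocytes, with 3.63 in the lowest library and 33.6 to 48.8 in the other 4, and 29.5 ± 1.65 in cardiomyocytes. ENSRNOT00000002187 was at 1.01 ± 0.0495 TPM in hepatocytes and 152.3 ± 11.02 in cardiomyocytes. The vehicle levels were not the same at 9 h. In hepatocytes ENSRNOT00000013073 then had 1317 ± 169.1 TPM and ENSRNOT00000017174 181.6 ± 11.6, and in renal cells the former had 56.3 ± 3.8 TPM. At both times the mean of ENSRNOT00000013073 was highest in hepatocytes and that of ENSRNOT00000002187 lowest there. All 4 are given as levels only, and the differences between cell types were not tested.

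The deposited tables also hold 25095 genomic intervals of Rnor_6.0, of which 6486 were tested at 24 h in the same way. There were 6 DEGs among them (0.0925%), 4 higher (0.0617%) and 2 lower (0.0308%), and 415 had an unadjusted p under 0.05. Without library MS-145 there were 8. No annotation of this build was at hand, so what lies in them is not known here.

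The 2 intervals with the smallest p-values were both lower at the low dose. The interval chr1:102748833-102768832 held 246.9, 227.2, 258.8, 247.0 and 238.2 CPM of the interval counts in vehicle libraries MS-136 to MS-140 and 128.8, 125.3, 127.99, 132.98 and 130.6 CPM in low-dose libraries MS-141 to MS-145. The low-dose values were closer to each other than the vehicle values, with library MS-145 among them, and the log2 fold change was -0.92 (SE 0.09, adjusted p = 0.00174, edgeR). The interval chr4:62110545-62130544 held 252.6, 197.1, 233.2, 209.4 and 215.1 CPM in vehicle and 109.2, 81.6, 113.1, 102.9 and 91.3 CPM at the low dose. Its groups did not overlap either, as in 1.73% of all tested intervals, and the log2 fold change was -1.15 (SE 0.12, adjusted p = 0.00174, edgeR).

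The other 4 intervals, on chromosomes 8, 9 and 16, rose by 1.13 to 2.20 on the log2 scale, and their groups did not overlap, the share over all tested intervals being 1.73%. All 6 kept an adjusted p of at most 0.05 without library MS-145. For the interval on chromosome 8, chr8:100191733-100211732, library MS-145 stood at 186.9 CPM, where the other low-dose libraries had 70.1 to 79.2 and the vehicle libraries 16.6 to 25.3. With library MS-145 left out its log2 fold change was 1.81 in place of 2.20. Scaled by the factors of the transcripts, only 1 of the intervals was called.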

How the data were processed

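For each library the authors deposited, per target, a length, an effective length, an estimated count and a TPM value from kallisto 0.42.4 on the Rnor_6.0 transcriptome, per the submitters' processing notes and the methods. TPM, as deposited, was used for levels across cell types and in 2 alternatives. The authors tested with Sleuth, which was not used here. Estimated counts of the 40071 transcripts with Ensembl identifiers were rounded to whole numbers and tested with edgeR 4.0.16 under R 4.3.3 (its filterByExpr filter, TMM factors, estimateDisp, glmQLFit and glmQLFTest). P-values were adjusted by Benjamini-Hochberg over all transcripts tested. The SE was the log2 fold change over the square root of F. Alternatives used DESeq2 1.42.0, limma 3.58.1, sva 3.50.0, other filters and normalizations, and each library left out. The functions were tested on simulated counts. No 2 libraries held identical values.

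The named transcripts were the 2 DEGs that rose the most and the 2 that fell the most, where groups did not overlap and the mean log2 CPM was 1 or more. The named intervals were the 2 with the smallest adjusted p, with ties broken by the unadjusted p. The interval on chromosome 8 was singled out after its values were seen. Members, rules and lists were chosen with earlier results of these data known. The gene table at hand (assembly GRCr8) held 47357 genes and no Ensembl identifiers, and 0 transcripts were matched, so counts per gene, gene lists and cell type markers were not scored. The renal libraries held 11415878 or more estimated counts each, while 1 hepatocyte vehicle library at 24 h held 2993135. The lower quartile of the tested transcripts was 3.06 CPM in vehicle, and for transcripts of low level counting error is part of the spread between libraries.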

Additional observations from a re-analysis of the deposited data

Results flagged for a closer look

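In 34 sets of 5 libraries (7 library measures, the 4 named transcripts and the 6 called intervals, in each group at 24 h), 11 had a library whose gap to the nearest of the others, over the range of the set, was above Dixon's 95% critical value for 5 samples, where chance gives about 1.7. The sets share libraries and are not independent. The transcripts and intervals among them were chosen from called ones, and the 1.7 holds only for sets not chosen in this way. Of the 11, 7 were of library MS-145: 15078809 estimated counts, where the nearest library had 30860544; 19227 transcripts detected, where the nearest had 21892; 41.6% of transcript counts on the 50 most abundant transcripts; 4.23% on transcripts of under 500 bases, where the nearest had 2.42%; 18.4% on transcripts of over 4000 bases; 112.6 CPM for the interval chr16:10454343-10474342, where the nearest had 87.1; and 186.9 CPM for the interval chr8:100191733-100211732. In vehicle, library MS-137 had 11415878 estimated counts, 20458 transcripts detected and 27.1 CPM for the interval chr16:10454343-10474342, and library MS-136 had 25.3% of its counts on transcripts of over 4000 bases, where the nearest had 24.8%.

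The response to the low dose differed between 24 and 9 h for 645 transcripts by edgeR's test of the difference. ENSRNOT00000017174, with 0.87, and ENSRNOT00000013073, with 1.38 on the log2 scale, were among them, both higher in all 5 low-dose libraries at 24 h. No explanation was tested.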

How the results depend on the processing

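No paired analysis was possible because the groups share no library numbers. The DEGs at the low dose at 24 h were 0.0622% of the transcripts tested, 8 higher and 3 lower. With DESeq2 they were 0.356%, 35 higher and 28 lower, with limma-voom and a weight for each library 0.746%, 60 and 72, with all 6 renal groups in one fit 0.748%, 88 and 55, over the 7086 transcripts tested with whole counts (within 0.001) 0.325%, 15 and 8, and at 2-fold or more 0.0226%, 4 and 0. limma on log2(TPM + 1) or log2(TPM + 0.1) called 0, 0 higher and 0 lower, with 749 and 622 transcripts at an unadjusted p under 0.05. The deposited TPM were not rescaled, and all 4 named transcripts then had adjusted p-values of 0.530 to 0.732 with their direction kept. A filter of at least 1 count in all gave 7 and 1, and transcripts and intervals in one fit gave 8 and 1. Each library left out in turn gave 0.0223% to 0.295%, 3 to 37 higher and 1 to 16 lower. Fits chosen after seeing the data gave 0.213%, 29 and 9 without MS-137 and MS-145, 0.475%, 51 and 34 with 3 libraries against 3, 0.52%, 40 and 52 with 1 surrogate variable, and 0.836%, 52 and 98 with that variable and without MS-145.

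Transcripts bounded within 1.5-fold numbered 8181, 7001 to 11915 with each library left out, and, in the added fits, 12361 with 3 against 3, 12342 with the surrogate variable and 12940 with it and without MS-145. The 645 transcripts that differed between the times became 1002 with a surrogate variable and 560 to 884 with each library left out. The 6 intervals became 1 with the filter of at least 1 count, 1 with the factors of the transcripts, 14 with a surrogate variable and 5 to 8 with each library left out. The cause of these moves was not tested.

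Without MS-145, total counts were higher at the low dose by 6393529 in place of 3125396 (exact permutation p = 0.0397, adjusted 0.127), transcripts detected differed by 528.2 in place of -124, and the share on the 50 most abundant transcripts by -0.19 in place of 4.22 percentage points. The log2 fold changes of the 4 named transcripts kept their direction in every setting that tested them, between 1.71 and 2.16, 1.50 and 1.80, -1.10 and -0.81, and -1.09 and -0.76. In the same order, the adjusted p was at most 0.05 in 26 of 28, 25 of 27, 25 of 27 and 16 of 28 settings. The last of these is ENSRNOT00000002187. Counts per gene were not run.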

Other observations

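The fits without library MS-145, with 3 libraries against 3 and with 1 surrogate variable shared 41 DEGs, 30 higher and 11 lower, which is 77.4% of the 53 DEGs without library MS-145. The 3 fits use many of the same libraries, so this is no independent support. The median log2 fold change without library MS-145 was 0.86 for the 30 and -0.76 for the 11. In the separate cultures of 9 h, 9 of the 30 were higher and 2 lower past both thresholds, and 4 of the 11 were lower and 2 higher, where 2.28% and 4.41% of all tested transcripts were higher and lower. The 2 that were lower at 9 h and higher at 24 h, and the 2 with the opposite order, were not looked at further. Over the 30, the log2 fold changes ran from -0.93 to 1.62 at 9 h and, against the same vehicle libraries, from 0.73 to 5.27 at the high dose. Over the 11, they ran from -1.23 to 2.97 at 9 h and from -3.08 to 1.20 at the high dose. The lengths of the 30 ran from 732 to 11622 bases with a median of 1568, and those of the 11 from 2415 to 11571 with a median of 4177, beside a median of 2179 over the tested transcripts.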
